A study of Mus musculus with 10 samples.

Results

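Border-associated macrophages are the resident macrophages of the perivascular spaces, the meninges and the choroid plexus. Their markers Mrc1, Cd163, Lyve1, F13a1, Pf4, Cbr2 and Stab1, together with Ccr2, a receptor of recruited monocytes, were selected by gene symbol, and all 8 were found among the 56884 gene IDs counted. The counts came from bulk mRNA sequencing of hippocampus from 10 female P301S mice, also called PS19 (B6;C3 background), which carry human 1N4R Tau with the P301S mutation under the mouse Prnp promoter, so that the transgene is not limited to a single cell type. At 6 months of age, 5 ovary-intact females received a subcutaneous SILASTIC implant filled with 10 mm of DHT, an androgen that aromatase cannot convert to estrogen, and 5 received an empty (void) implant. All mice carried implants, which were replaced at intervals, for 12 weeks, were perfused with PBS and were 9 to 9.5 months old at tissue collection, and each gave 1 library. Total counts ranged from 27188854 to 47113661 in void-treated females (median 32844884) and from 33523527 to 45947784 in DHT-treated females (median 36379142). The S numbers in the labels were 4 to 11 for void and 18 to 23 for DHT. The labels do not say what these numbers stand for. Whatever they mark cannot be told apart from treatment.

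Border-associated macrophages share the dependence on CSF1 receptor signalling with microglia but sit outside the brain tissue proper, along vessels and at its borders, where they take up proteins, lipids and haemoglobin from the surrounding fluid through scavenger receptors. Most are seeded before birth, and those of the choroid plexus and dura are partly replaced by blood monocytes, which enter through CCR2. Hippocampal dissections can hold them in vessel walls and in attached pia and choroid plexus.

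The excitatory neuron kinase gene Camk2a was high, at 3150 ± 216 CPM (counts per 1e+06 after TMM normalization, mean ± SD, n = 5) in the void group and 3080 ± 442 in the DHT group (n = 5). Whether other brain regions were included in the dissection was not tested. All 8 markers had counts in every library, but few. The lowest and highest count in a library were 408 and 730 for Stab1, 26 and 287 for Mrc1, and 4 and 29 for Ccr2. Per kilobase of exon, which allows levels of different genes to be compared, Stab1 was the most abundant marker at 1.41 ± 0.184 CPM per kb (SD, 10 mice), followed by Mrc1 at 0.65 ± 0.338. Next in order were Pf4 at 0.368 ± 0.158 and Cbr2 at 0.31 ± 0.154 CPM per kb. F13a1 at 0.21 ± 0.129, Lyve1 at 0.207 ± 0.0913 and Cd163 at 0.205 ± 0.114 CPM per kb were at the same level, and Ccr2 was the lowest at 0.0594 ± 0.0274. The steps from Stab1 to Mrc1 and from Cd163 to Ccr2 exceeded the SD of both neighbours, and the other steps did not. On the same scale the microglial genes Csf1r and P2ry12 were at 21.9 ± 4.91 and 24.2 ± 3.31 CPM per kb, above every marker.

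The comparison of DHT-treated with void-treated females asks whether androgen changed the RNA of these macrophages beside that of microglia. In bulk tissue, fewer cells of a type and less RNA per cell cannot be told apart. Genes were tested with the quasi-likelihood test of edgeR, adjusted by Benjamini-Hochberg over the 17622 genes that passed its expression filter, and a gene passed at an adjusted p under 0.05. Of the 8 markers, 7 were tested and Pf4 had too few counts. With DHT, 0 of the 7 were higher and 0 were lower by edgeR, and 0 had an unadjusted p under 0.05. DESeq2, which tested all 8, also called 0, with 0 at an unadjusted p under 0.05. Of 35297 genes, DESeq2 called 1220 higher and 226 lower. For the unadjusted p of edgeR, the gene ranked 2822 by p among the 17622 had a p of 0.0422. Among all genes tested by edgeR, 920 were higher (5.22%) and 46 lower (0.261%), and 382 were higher with a log2 fold change above 1 (2.17%), against 0 markers. These counts depended on single mice and on the model: with each mouse left out, 351 to 1072 genes were higher, 5 to 77 lower and 175 to 513 higher beyond that limit, and with the mean of the choroid plexus genes as a covariate 0 passed by edgeR. Every DHT-treated mouse was above every void-treated mouse for 903 of all genes tested (5.12%), against 0 of the 7 markers tested, and Pf4 overlapped as well. With shares of called and of non-overlapping genes this low, 0 of 7 or 8 lies near the background. With each mouse left out in turn, 0 markers passed by edgeR, and the sign of the change of Mrc1, Cd163, F13a1, Stab1 and Ccr2, all near 0, turned in at least 1 of those fits. Of the 7 log2 fold changes, 4 were positive and 3 negative, with a median of 0.02, beside a median of 0.009 over all genes tested.

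**Figure D1:**
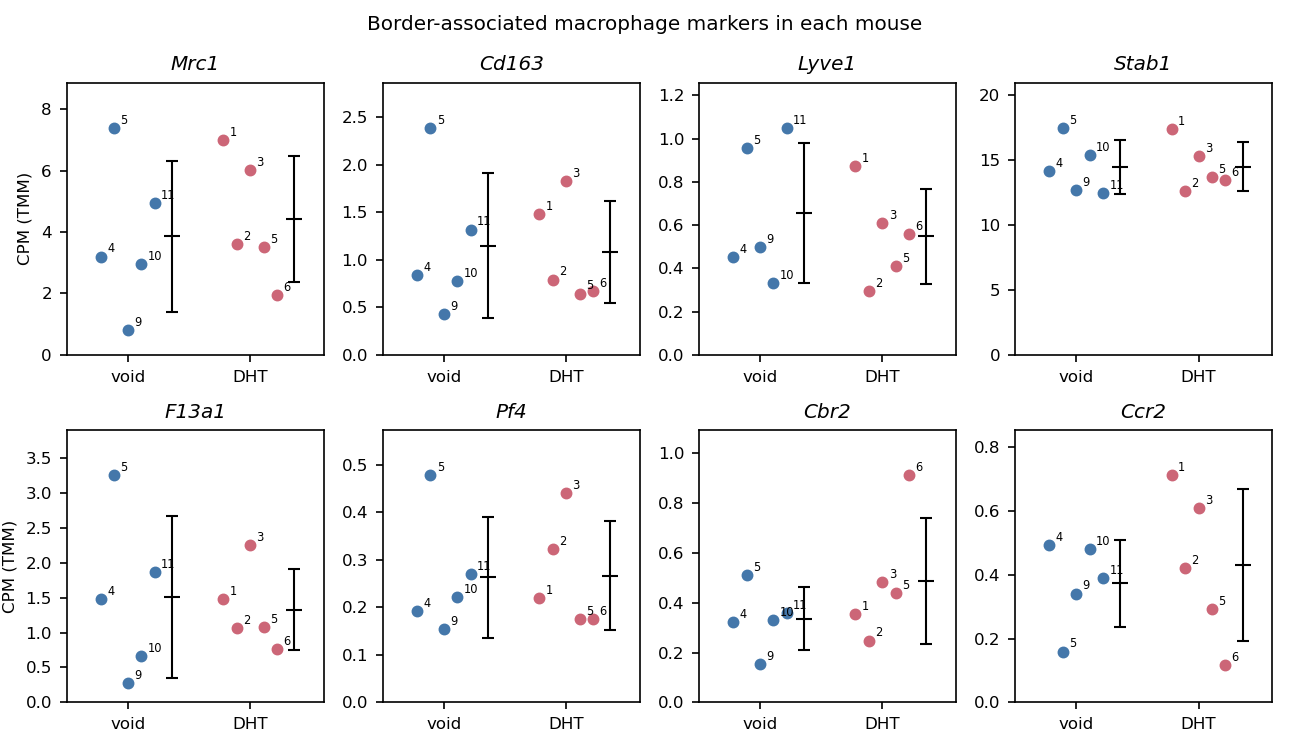
Normalized level (CPM, y axis, from 0) of each of the 8 markers in each void-treated (blue) and DHT-treated (red) mouse, numbered by replicate; bars show the mean and SD of 5 mice. The groups overlap for all 8 markers, and void mouse 5 is highest for 5 of them and void mouse 9 lowest for 5.

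Mrc1 (ENSMUSG00000026712.4) encodes the mannose receptor CD206, which takes up glycoproteins. In void-treated females it was at 3.20, 7.39, 0.807, 2.96 and 4.93 CPM in mice 4, 5, 9, 10 and 11. In DHT-treated females it was at 7, 3.62, 6.03, 3.52 and 1.94 CPM in mice 1, 2, 3, 5 and 6. Void mouse 5 and DHT mice 1 and 3 were the highest, void mouse 9 stood below every other mouse, and the groups overlapped. The highest level was 9.16 times the lowest, and both lay in the void group. The means were 3.86 ± 2.46 and 4.42 ± 2.05 CPM (SD, n = 5 each), which gave a change of 0.21 ± 0.46 on the log2 scale (± standard error; edgeR, adjusted p = 0.889). The 95% interval of the change ran from 0.576-fold to 2.32-fold. The interval depended on the model. With the mean of the choroid plexus genes as a covariate, the log2 change was 1.81 (edgeR, 95% interval 0.27 to 3.34, adjusted p = 0.621).

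Cd163 (ENSMUSG00000008845.10) encodes the receptor that clears haemoglobin bound to haptoglobin. Its levels were 0.838, 2.39, 0.434, 0.776 and 1.32 CPM in void mice 4, 5, 9, 10 and 11. DHT mice 1, 2, 3, 5 and 6 had 1.48, 0.793, 1.83, 0.645 and 0.676 CPM. The same mice as for Mrc1 were at the extremes, void mouse 5 at the top and void mouse 9 at the bottom, and all DHT-treated mice lay between them. The means of 1.15 ± 0.761 and 1.08 ± 0.536 CPM (SD, n = 5 each) differed by -0.06 on the log2 scale (edgeR, adjusted p = 0.97, standard error 0.43), with a 95% interval from -1 to 0.88.

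Stab1 (ENSMUSG00000042286.14) encodes stabilin-1, a scavenger receptor for modified lipoproteins and extracellular matrix fragments. It was at 14.2, 17.5, 12.7, 15.4 and 12.5 CPM in void mice 4, 5, 9, 10 and 11, and at 17.4, 12.6, 15.3, 13.7 and 13.5 CPM in DHT mice 1, 2, 3, 5 and 6. Levels were even, with the highest mouse 1.41 times the lowest, and the ranges of the groups were nearly the same. Both means were 14.5 CPM (SD 2.10 with void and 1.91 with DHT, n = 5 each). Stab1 therefore had the narrowest interval of the markers tested, from 0.85-fold to 1.21-fold (log2 fold change 0.02, standard error 0.12, adjusted p = 0.967, edgeR). Over the 10 mice, with group means subtracted, its Pearson's r was 0.668 with the mean of other border-associated macrophage genes. It was 0.648 with homeostatic and 0.702 with disease-associated microglia genes. The part of microglia and other cell types in the Stab1 level was not tested.

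Lyve1 (ENSMUSG00000030787.5) encodes a hyaluronan receptor found on perivascular and meningeal macrophages and on lymphatic endothelium. Void mice 4, 5, 9, 10 and 11 had 0.451, 0.956, 0.497, 0.332 and 1.05 CPM. In DHT mice 1, 2, 3, 5 and 6 the levels were 0.875, 0.297, 0.609, 0.410 and 0.558 CPM. Void mice 5 and 11 and DHT mouse 1 were high, and the groups overlapped over nearly the whole range. The log2 fold change was -0.24 (edgeR, adjusted p = 0.816, standard error 0.36), with a 95% interval from -1.03 to 0.54. Of 5 lymphatic endothelium genes, Ccl21a and Mmrn1 had at most 2 and 3 counts in a library, while Flt4 had 124 to 216, Pdpn 368 to 1444 and Prox1 3706 to 7390, and the part of lymphatic endothelium in the Lyve1 level was not tested.

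F13a1 (ENSMUSG00000039109.18) encodes the catalytic subunit of coagulation factor XIII, a transglutaminase that macrophages and platelets make. It had the widest spread, at 1.48, 3.25, 0.279, 0.665 and 1.86 CPM in void mice 4, 5, 9, 10 and 11. DHT mice 1, 2, 3, 5 and 6 had 1.48, 1.07, 2.25, 1.08 and 0.764 CPM. Void mouse 5 was 11.6 times void mouse 9, the DHT-treated mice all lay within that range, and void mice 9 and 10 were below all of them. On the log2 scale the groups differed by -0.17 (edgeR, adjusted p = 0.92, standard error 0.50), and the 95% interval from -1.25 to 0.92 was the widest among the markers.

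Pf4 (ENSMUSG00000029373.8) encodes the chemokine CXCL4, stored in platelets and also made by border-associated macrophages. It had 5 to 21 counts in a library. Its CPM was 0.193, 0.478, 0.155, 0.222 and 0.270 in void mice 4, 5, 9, 10 and 11, and 0.219, 0.322, 0.441, 0.176 and 0.176 in DHT mice 1, 2, 3, 5 and 6. Void mouse 5 and DHT mouse 3 were the highest, and the means of 0.264 ± 0.127 and 0.267 ± 0.114 CPM (SD, n = 5 each) were nearly equal. Without the expression filter, the change of Pf4 was 0.06 on the log2 scale with a standard error of 0.38 (edgeR, adjusted p = 0.973 over 35326 genes). Of 7 platelet genes, Ppbp, Gp1ba, Gp1bb and Treml1 had at most 3, 2, 3 and 3 counts in a library and Gp9 at most 11, while Itga2b had 23 to 55 and Gp5 21 to 62, against 5 to 21 for Pf4. The part of platelets in the Pf4 level was not tested.

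Cbr2 (ENSMUSG00000025150.11) encodes a carbonyl reductase. Void mice 4, 5, 9, 10 and 11 had 0.322, 0.510, 0.155, 0.332 and 0.360 CPM, and DHT mice 1, 2, 3, 5 and 6 had 0.355, 0.248, 0.483, 0.440 and 0.911 CPM. DHT mouse 6, low for Mrc1, was the only DHT-treated mouse above all void-treated mice, and the other 4 overlapped with them. Cbr2 had the largest log2 fold change of the markers tested, at 0.54, which did not pass (edgeR, adjusted p = 0.535, standard error 0.37, 95% interval -0.28 to 1.35). This rank depended on DHT mouse 6. Without that mouse Cbr2 was at 0.199, below Ccr2 at 0.45 and Mrc1 at 0.396.

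Ccr2 (ENSMUSG00000049103.15) encodes the chemokine receptor by which monocytes leave the blood. Its levels were 0.494, 0.159, 0.341, 0.480 and 0.390 CPM in void mice 4, 5, 9, 10 and 11, and 0.711, 0.421, 0.609, 0.293 and 0.118 CPM in DHT mice 1, 2, 3, 5 and 6. DHT mice 1 and 3 were above every void-treated mouse, while DHT mouse 6 was the lowest of all. Void mouse 5, the highest mouse for Mrc1, was the lowest of the void group for Ccr2. The log2 fold change was 0.23 (standard error 0.41, 95% interval -0.66 to 1.11, adjusted p = 0.859, edgeR). Over the 8 markers, two-sided exact permutation tests of each marker alone, which need no expression filter, gave p values from 0.294 for Cbr2 to 0.992 for Cd163 (8 tests; 0.00794 is the smallest p that 5 mice against 5 allow).

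Ligands of CCR2 and adhesion molecules of monocyte entry were in part higher with DHT. Of 9 listed genes, 4 were tested, of which 3 were higher and 0 lower by edgeR (median log2 fold change 0.86), and DESeq2, without the expression filter, called 4. Ccl12, a ligand of CCR2, was at 0.172 to 0.382 CPM in the void-treated mice and 0.397 to 2.12 CPM in the DHT-treated mice, with DHT mouse 3 the highest and no overlap. Its rise on the log2 scale was 1.85 (edgeR, adjusted p = 0.0413, standard error 0.47). Vcam1 and Icam1, endothelial adhesion molecules that glia can also make, rose by 0.72 (adjusted p = 0.0122) and 1.01 (adjusted p = 0.0133) on the log2 scale, each without overlap of the groups. Cx3cl1, the neuronal ligand of the microglial receptor CX3CR1 and the most abundant gene of the list, had a log2 fold change of -0.09 (adjusted p = 0.763). Ccl2, the main CCR2 ligand, had too few counts for edgeR and averaged 0.112 ± 0.0823 CPM in the void group and 0.342 ± 0.136 in the DHT group (SD, n = 5 each, two-sided exact permutation test, p = 0.0159). The groups overlapped, with void mouse 5 at 0.255 and DHT mouse 2 at 0.198 CPM. Ccl2 was named after its values were seen, so this p only describes it. Ccl7, Ccl8, Sele and Selp had at most 7, 6, 4 and 1 counts in a library.

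Monocyte genes were found at very different levels. Plac8, Chil3, F10 and Treml4 had at most 7, 2, 1 and 5 counts in a library, whereas Ace, Fn1 and Vcan averaged 104, 84.8 and 31.1 CPM over all mice, and Itgal 0.863 CPM. Ly6c2, a gene of classical monocytes whose reads may be shared with its close relative Ly6c1, averaged 0.648 ± 0.584 CPM in the void group and 0.903 ± 0.5 in the DHT group (SD, n = 5 each; adjusted p = 0.806, edgeR). S100a4 had 1 to 3 counts in the void-treated and 4 to 9 in the DHT-treated mice, without overlap in CPM but with a margin of 1 count. These were too few for edgeR. An exact permutation test gave p = 0.00794, for a gene named after its values were seen. Of 12 listed monocyte genes, 5 were tested, with 1 higher and 0 lower. That gene was Ace, which encodes angiotensin-converting enzyme, which rose by 2.04 on the log2 scale (adjusted p = 0.0133). Among void-treated mice Ace was lowest in mouse 5 (17.5 CPM) and highest in mouse 9 (93.1 CPM), which were also low and high for choroid plexus genes (summed CPM of 389 and 3270), and the part of choroid plexus in this result was not tested. Fn1 had the lowest log2 fold change of the list, at -0.17 (adjusted p = 0.582).

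Other genes of border-associated macrophages were taken from a list of 22. Of these, 14 were tested, 2 were higher and 0 lower, and 12 changes were positive, with a median of 0.63 beside the 0.02 of the markers. An unadjusted p under 0.05 was met by 6 of the 14 (edgeR). With each mouse left out, 1 to 4 were higher, and with the mean of the choroid plexus genes as a covariate 0 were by edgeR. Dab2, an adaptor of clathrin-mediated uptake, was at 14.8, 15.8, 15.6, 10.5 and 15.4 CPM in void mice 4, 5, 9, 10 and 11 and at 44.9, 25.9, 36.3, 25.5 and 26.9 CPM in DHT mice 1, 2, 3, 5 and 6. The groups were far apart, and the low Mrc1 level of void mouse 9 had no counterpart in Dab2. The rise of Dab2 on the log2 scale was 1.15 (edgeR, adjusted p = 0.00671, standard error 0.17). Maf, a transcription factor of tissue macrophages, had 36.5 to 39.7 CPM in the void-treated mice and 42.4 to 47.7 CPM in the DHT-treated mice. Its rise was 0.24 (adjusted p = 0.0238, standard error 0.05). Per kilobase of exon, Dab2 was at 3.16 ± 1.49 and Maf at 4.99 ± 0.456 CPM per kb (SD, 10 mice). Both were above Stab1, the most abundant marker, at 1.41 ± 0.184. The part of other cell types in the levels and rises of Dab2 and Maf was not tested.

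Siglec1, which encodes the sialic acid receptor CD169, was at 0.279, 1.02, 0.124, 0.0739 and 0.270 CPM in void mice 4, 5, 9, 10 and 11 and at 1.34, 0.570, 0.966, 1.06 and 1.12 CPM in DHT mice 1, 2, 3, 5 and 6. Void mouse 5 alone reached the level of the DHT-treated mice. Its change of 1.51 on the log2 scale did not pass (adjusted p = 0.115, standard error 0.50). Lilra5 (1.24, adjusted p = 0.159) and Ms4a7 (1.12, adjusted p = 0.152) had log2 fold changes of similar size that did not pass, and void mouse 5 was also the highest void-treated mouse for both. The remaining genes not passing were Cd209f, Clec10a, Hpgd, Folr2, Blvrb, Colec12, Wwp1, Cd36 and Cd209a, with log2 fold changes of 0.70, 0.68, 0.68, 0.59, 0.40, 0.36, 0.03, -0.14 and -0.20. The Cd209 genes, and Clec10a with Mgl2, are close relatives whose reads could be divided between copies, so their values are uncertain. Cd209b, Cd209d, Cd209g, Clec4n, Fcna, Mgl2, Timd4 and Vsig4 had too few counts, Vsig4 with at most 1 count in a library.

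**Figure D2:**
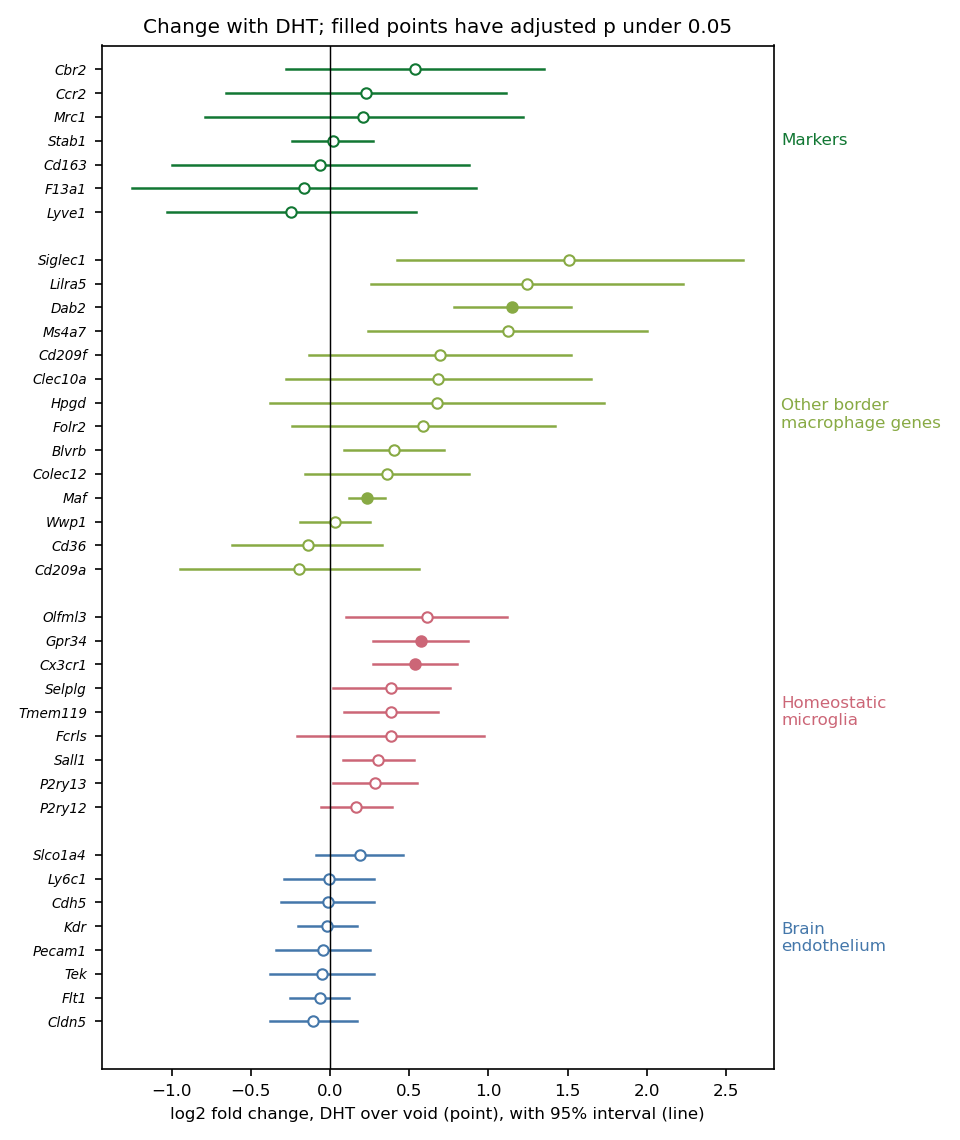
Log2 fold change of DHT over void (x axis; point) with its 95% interval (line) for the 7 markers tested and for the other border-associated macrophage, homeostatic microglia and brain endothelium genes reported (y axis); filled points have an adjusted p under 0.05. All 7 marker intervals include 0, whereas Dab2, Maf, Gpr34 and Cx3cr1 are filled.

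The pathways in which the markers act were compared through listed genes. Of 12 scavenger receptor genes beyond the markers, 9 were tested, with 2 higher and 0 lower (median log2 fold change 0.14). Cd68, a lysosomal protein of phagocytes, rose by 1.34 (adjusted p = 0.0067) and Cxcl16, a scavenger receptor for oxidized lipoprotein, by 1.86 (adjusted p = 0.00761) on the log2 scale, both without overlap of the groups. Lrp1, the most abundant of them, had a log2 fold change of 0.14 (adjusted p = 0.676). Stab2, the relative of Stab1, had -0.35 (adjusted p = 0.649), and Marco had 0 counts in all libraries. Of 10 genes of haemoglobin and haem handling, the cargo of CD163, 8 were tested, with 1 higher and 0 lower (median 0.10). Hmox1, the inducible haem oxygenase, was at 3.78 to 4.87 CPM with void and 5.5 to 8.59 CPM with DHT, a rise of 0.76 (log2; adjusted p = 0.0106, standard error 0.14). Fth1, the ferritin heavy chain and the most abundant gene of the list, had a log2 fold change of 0.14 (adjusted p = 0.467). The iron exporter gene Slc40a1 was level, at 14.2 ± 3.12 CPM in the void group and 14.1 ± 2.33 in the DHT group (SD, n = 5 each; adjusted p = 0.996). Its highest and lowest mice were again void mice 5 (19 CPM) and 9 (10.3 CPM).

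Growth factor signalling on which macrophages and microglia depend was higher in most of its genes. Of 10 genes listed, all tested, 8 were higher and 0 lower (median log2 fold change 0.50). Csf1r, the receptor of CSF1 and IL-34 and the most abundant of them, was at 96.4 to 120 CPM with void and 131 to 176 CPM with DHT, a rise of 0.55 (log2; adjusted p = 0.00965, standard error 0.09). Tgfbr2 had the lowest p (0.66, adjusted p = 0.00927), Csf2rb the highest log2 fold change (1.16, adjusted p = 0.0128) and Il34 the lowest (-0.16, adjusted p = 0.369).

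Microglial genes, which share the macrophage lineage, were the nearest comparison. Of 10 homeostatic microglia genes, all tested, 3 were higher and 0 lower, the change was positive in all 10, and the median log2 fold change was 0.39. An unadjusted p under 0.05 was met by 8 of them (edgeR). Gpr34 rose by 0.57 (adjusted p = 0.0335) and Cx3cr1, the fractalkine receptor, by 0.54 (adjusted p = 0.0251), and P2ry12 had the lowest value at 0.16 (adjusted p = 0.479). Of 12 disease-associated microglia genes, 10 were higher and 0 lower (median 1.05), from Lpl at 0.10 (adjusted p = 0.892) to Cst7 at 3.59 (adjusted p = 0.00761). Cd9 rose by 1.04 (adjusted p = 0.0067) and Ctsb, the most abundant, by 0.33 (adjusted p = 0.015). With the libraries scaled to the homeostatic microglia genes, the median of all genes moved to -0.40, with 568 of all genes higher (3.22%) and 9906 lower (56.2%). On that scale 0 of the 7 markers tested were higher by edgeR and 1 was lower, Stab1, at -0.41 (adjusted p = 0.0127, standard error 0.12), close to the shift of all genes. The other markers ranged from -0.69 for Lyve1 (adjusted p = 0.0754) to 0.13 for Cbr2 (adjusted p = 0.757), with Mrc1 at -0.24 (adjusted p = 0.584) and Cd163 at -0.50 (adjusted p = 0.249).

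Within the groups, several markers varied together from mouse to mouse. Relations were computed over the 10 mice on log2 CPM after the mean of each group was subtracted. Mrc1 was set against 26 measures (the other 7 markers, 18 gene lists and the total count). Two-sided permutation tests used 100000 resamples, with Benjamini-Hochberg adjustment over the 26. Values were shuffled over all 10 mice and not within each group. The shuffling made no allowance for the group means subtracted, so these p values are approximate. Mrc1 followed Cd163 with Pearson's r of 0.912 (permutation p = 0.00015, adjusted 0.00104) and Spearman's rho of 0.939 (permutation p = 0.00024, adjusted 0.00624). With F13a1, r was 0.929 (permutation p = 0.00011, adjusted 0.00104) and rho 0.83 (permutation p = 0.00435, adjusted 0.0226). Void mice 9 and 5 lay farthest from the median of Mrc1, and without them r was 0.849 with Cd163 and 0.788 with F13a1. Both relations were thus also seen in the other 8 mice.

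The other markers followed Mrc1 less. Pf4 had r of 0.719 (permutation p = 0.019, adjusted 0.0823; rho 0.733, p = 0.0201, adjusted 0.0765), and r of 0.512 without void mice 9 and 5. Stab1 had r of 0.636 (permutation p = 0.0467, adjusted 0.135; rho 0.552, p = 0.106, adjusted 0.212), and 0.41 without those mice. Lyve1 had r of 0.54 (permutation p = 0.107, adjusted 0.253; rho 0.576, p = 0.0881, adjusted 0.191), and 0.534 without them. None of these passed after adjustment. For Cbr2 r was 0.307 (permutation p = 0.387, adjusted 0.559; rho 0.345, p = 0.331, adjusted 0.478) and changed sign to -0.488 without the 2 mice. Ccr2 gave r of 0.253 (permutation p = 0.487, adjusted 0.633; rho 0.394, p = 0.265, adjusted 0.431) over all mice and 0.862 over the other 8, in which void mouse 5, high for Mrc1 and low for Ccr2, was left out. Total count, which sets how well a rare gene is measured, had r of 0.121 with Mrc1 (permutation p = 0.735, adjusted 0.796; rho 0.2, p = 0.581, adjusted 0.657; 0.276 without the 2 mice).

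Of the 18 gene lists, 3 followed Mrc1 after adjustment. List means took in all listed genes, also those with too few counts to test, such as Xcr1, Clec9a and Ccr7 among the dendritic cell genes. The mean of the other border-associated macrophage genes had r of 0.935 (permutation p = 6e-05, adjusted 0.00104), rho of 0.879 (permutation p = 0.00158, adjusted 0.0137) and r of 0.911 without void mice 9 and 5. The dendritic cell genes had r of 0.918 (permutation p = 2e-04, adjusted 0.00104), rho of 0.891 (permutation p = 0.00102, adjusted 0.0133) and r of 0.897 without those mice. For the 8 brain endothelium genes the values were r of 0.918 (permutation p = 0.00019, adjusted 0.00104), rho of 0.842 (permutation p = 0.00372, adjusted 0.0226) and r of 0.779 without void mice 9 and 5. The summed endothelial CPM was 262, 319, 222, 261 and 284 in void mice 4, 5, 9, 10 and 11 and 284, 258, 292, 257 and 242 in DHT mice 1, 2, 3, 5 and 6. Void mouse 5 was thus highest and void mouse 9 lowest for endothelial genes too, over a narrower range than for Mrc1. The part of vessel content in the marker levels was not tested. Of the 8 endothelial genes 0 were higher and 0 lower with DHT by edgeR, 0 had an unadjusted p under 0.05 and 0 passed by DESeq2 (median log2 fold change -0.03), from -0.11 for Cldn5 (adjusted p = 0.75) to 0.19 for Slco1a4 (adjusted p = 0.518), with Flt1 the most abundant. Meningeal fibroblast genes had r of 0.688 with Mrc1 (permutation p = 0.0278, adjusted 0.0904; rho 0.673, p = 0.0396, adjusted 0.106; 0.529 without the 2 mice). Homeostatic microglia genes had r of 0.419 (permutation p = 0.224, adjusted 0.388; rho 0.661, p = 0.0445, adjusted 0.106; 0.584 without the 2 mice). Disease-associated microglia genes had r of 0.19 (permutation p = 0.603, adjusted 0.739; rho 0.309, p = 0.389, adjusted 0.482; 0.156 without the 2 mice). Choroid plexus aside, the remaining 11 lists ranged in r from -0.51 for hippocampal neurons (permutation p = 0.123, adjusted 0.266) to 0.56 for CCR2 ligands and monocyte recruitment (permutation p = 0.0904, adjusted 0.235), and none passed after adjustment by r or by rho.

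**Figure D3:**
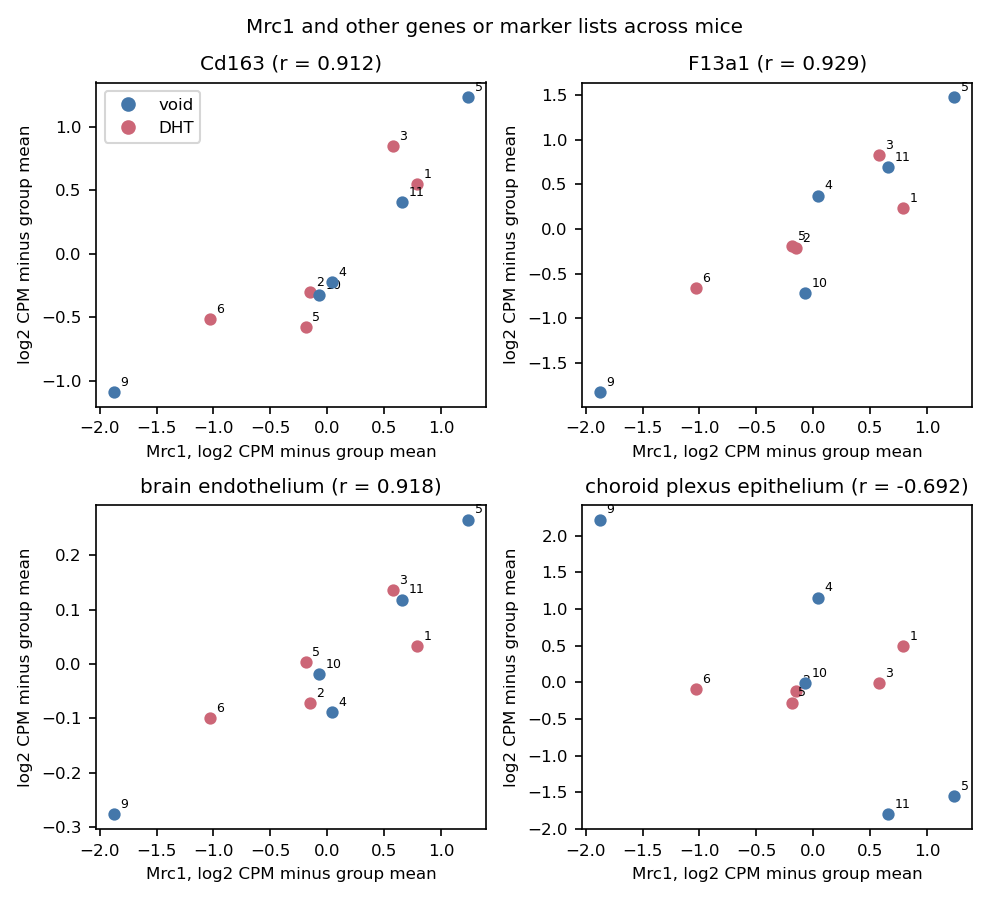
Log2 CPM of Mrc1 (x axis) against Cd163, F13a1 and the mean of brain endothelium or choroid plexus epithelium genes (y axes) in 10 mice, each minus the mean of its group; void in blue, DHT in red, numbered by replicate. Points follow Mrc1 closely for Cd163, F13a1 and endothelium, whereas the negative relation with choroid plexus rests on void mice 9 and 5.

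Choroid plexus genes differed most between the libraries. Their summed CPM was 1750, 389, 3270, 934 and 361 in void mice 4, 5, 9, 10 and 11 and 5750, 4130, 4240, 3830 and 4290 in DHT mice 1, 2, 3, 5 and 6. The groups did not overlap, and void mouse 9, lowest for Mrc1, was the void-treated mouse nearest to them. Of 12 genes, all tested, 4 were higher and 0 lower, and the change was positive, with an unadjusted p under 0.05 (edgeR), in all 12 (median 2.11). Enpp2, the most abundant, rose by 1.71 (adjusted p = 0.0332) and Kl, with the lowest p, by 1.85 (adjusted p = 0.0321), while Sostdc1 at 2.30 (adjusted p = 0.061) and Ttr at 1.63 (adjusted p = 0.237) did not pass. Against Mrc1 within the groups, choroid plexus genes had r of -0.692 (permutation p = 0.0273, adjusted 0.0904) and rho of -0.297 (permutation p = 0.409, adjusted 0.483). Without void mice 9 and 5, r was -0.154, so that the relation rests on those mice. With the mean of the choroid plexus genes as a covariate, 0 genes passed by edgeR while 1237 had an unadjusted p under 0.05 (7.02% of those tested). This fit was not run with DESeq2. In it the change of Mrc1 was 1.81 with a standard error of 0.70 (edgeR, unadjusted p = 0.0251, adjusted p = 0.621). In that fit Cd163 was at 1.304 (adjusted p = 0.74), F13a1 at 1.49 (adjusted p = 0.738), Lyve1 at 0.57 (adjusted p = 0.923) and Ccr2 at -0.27 (adjusted p = 0.982), each opposite in sign to its value without the covariate. Cbr2 was at 1.38 (unadjusted p = 0.0439, adjusted p = 0.686, 95% interval 0.04 to 2.71), above its 0.54 without the covariate, and Stab1 at 0.11 (adjusted p = 0.97). Because the choroid plexus level itself separates the groups, its part and that of DHT cannot be told apart.

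Cell types that lie beside border-associated macrophages were compared through listed genes. Of 11 meningeal fibroblast genes, 1 was higher and 0 lower (median -0.14). It was Igf2 (1.68, adjusted p = 0.00931), a growth factor gene that choroid plexus also expresses, and Dcn, the most abundant, had -0.17 (adjusted p = 0.82), with Col1a1 the lowest (-0.35, adjusted p = 0.625). Of 5 lymphatic endothelium genes 3 were tested, with 1 higher and 0 lower. Pdpn rose by 0.80 (adjusted p = 0.00939), and Prox1, also a gene of dentate granule neurons and the most abundant, had -0.16 (adjusted p = 0.623). Of 8 dendritic cell genes 4 were tested, of which Irf8, shared with microglia, rose by 1.18 (adjusted p = 0.0067) and Flt3 fell by 0.39 (adjusted p = 0.0144) on the log2 scale. Siglech, the most abundant, had 0.35 (adjusted p = 0.165), and Xcr1, Clec9a and Ccr7 had at most 2, 4 and 1 counts in a library.

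Genes of blood cells were low. Of 7 platelet genes 2 were tested, and 0 passed by edgeR, by DESeq2 or at an unadjusted p under 0.05, with Itga2b at 0.28 (adjusted p = 0.608) and Gp5, the most abundant, at 0.27 (adjusted p = 0.695). Of 7 red blood cell genes, 1 was tested, Hbb-bs at -0.04 (adjusted p = 0.979), which averaged 0.824 ± 0.443 CPM in the void group and 0.792 ± 0.443 in the DHT group (SD, n = 5 each), although haemoglobin genes share reads among copies. No neutrophil gene of 7 had enough counts, and S100a9, the most abundant, had at most 15 in a library. Of 8 T cell genes only Trac was tested, at -0.01 (adjusted p = 0.99), while the other 7 had too few counts, at most 25 in a library. Among those, Cd3d had 0 to 1 counts in the void-treated and 1 to 6 in the DHT-treated mice, Cd3g 0 to 3 and 4 to 10, Nkg7 0 to 3 and 4 to 6 and Cd8a 0 to 6 and 4 to 23. The CPM of the groups did not overlap for Cd3d, Cd3g and Nkg7, but by a margin of at most 1 count, and for Cd3d by library size alone, so no difference is read from them. Exact permutation tests gave p = 0.00794 for each of them and 0.0476 for Cd8a, all named after their values were seen. Every DHT-treated mouse was above every void-treated mouse for 5.12% of all genes tested. Cd3e, Cd2, Cd8a and Trbc2 overlapped. The summed CPM of the list was 1.3 ± 0.38 in the void group and 1.8 ± 0.429 in the DHT group (SD, n = 5 each), with ranges that overlapped. The mean log2 CPM of the list, in which genes with few counts weigh as much as Trac, did not overlap. It ran from -3.371 to -2.526 in the void group and from -2.453 to -1.847 in the DHT group. Hippocampal neuron genes, 10 of 10 tested, had 0 higher and 0 lower by edgeR, 0 at an unadjusted p under 0.05 and 0 by DESeq2 (median -0.05), from Syt1 at -0.21 (adjusted p = 0.509) to Neurod6 at 0.04 (adjusted p = 0.91), with Snap25 at -0.10 (adjusted p = 0.49).

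For each marker tested, the genes with the most similar pattern over the 10 mice were taken from the tested genes with a mean of at least 1 CPM (14834 for Mrc1), by Pearson's r after the group means were subtracted, as a description without a test. Mrc1 was most like Itih5 (0.988), Flt1 (0.977) and Abcb1a (0.976), of which Flt1 encodes an endothelial VEGF receptor and Abcb1a the P-glycoprotein transporter of the blood-brain barrier. F13a1 was most like Itm2a (0.975), Cd93 (0.962) and Fam49b (0.952). Cd163 was most like Uvssa (0.981), Srsf5 (0.979) and Brip1os (0.976). Lyve1 was most like Anpep (0.941), a peptidase of pericytes and fibroblasts, Stom (0.939) and Gm10461 (0.93). Stab1 was most like Tlr1 (0.973), an innate immune receptor, Mks1 (0.965) and Prkch (0.954). Cbr2 was led by Gfra2 (0.925), Fgd5 (0.923) and Cenpt (0.918), and Ccr2 by Phf20 (0.936), Cog5 (0.925) and Dnajc3 (0.923). The ranks depended on the measure: by Spearman's rho, only Itih5 and Flt1 for Mrc1, Itm2a for F13a1 and Cenpt for Cbr2 were again among the first 3. All genes compared come from the same 10 libraries.

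Because Mrc1, Cd163 and F13a1 varied together, the 250 bases before their transcription starts are shown, taken from RefSeq on GRCm38.p6. Promoters were found for 7 of the 8 markers, with Lyve1 not matched. Both strands were searched for GAGGAA, a core bound by the myeloid factor PU.1, TGCTGA, a core bound by MAF, AGAACA, the repeat unit of the androgen receptor element, and AGGTCA, the repeat unit bound by nuclear receptors such as TR4. No matches in the marker promoters overlapped, and 23.3%, 16.1%, 16.1% and 14.0% of 32851 promoters of the same length held them. Mrc1 (chr2:14229164-14229413, plus strand) held GAGGAA on the opposite strand at 3 places, starting 180, 167 and 35 bases before the start, and Cd163 (chr6:124304401-124304650, plus strand) held AGAACA on the opposite strand at 119 bases. F13a1 (chr13:37050245-37050494, minus strand) held GAGGAA at 66 bases in the promoter shown and none of the motifs in its other one. Each sequence runs 5′ to 3′ on the strand of the gene, with matches in capitals.
Mrc1: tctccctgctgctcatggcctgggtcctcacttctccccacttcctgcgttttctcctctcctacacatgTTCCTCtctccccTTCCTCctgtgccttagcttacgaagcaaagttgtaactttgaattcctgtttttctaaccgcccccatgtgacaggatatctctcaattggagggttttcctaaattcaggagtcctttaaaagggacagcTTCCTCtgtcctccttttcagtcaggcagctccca
Cd163: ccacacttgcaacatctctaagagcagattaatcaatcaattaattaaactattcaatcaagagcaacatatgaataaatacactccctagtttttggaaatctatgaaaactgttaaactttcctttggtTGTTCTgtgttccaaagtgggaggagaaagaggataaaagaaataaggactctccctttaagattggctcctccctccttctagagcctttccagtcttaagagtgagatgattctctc
F13a1: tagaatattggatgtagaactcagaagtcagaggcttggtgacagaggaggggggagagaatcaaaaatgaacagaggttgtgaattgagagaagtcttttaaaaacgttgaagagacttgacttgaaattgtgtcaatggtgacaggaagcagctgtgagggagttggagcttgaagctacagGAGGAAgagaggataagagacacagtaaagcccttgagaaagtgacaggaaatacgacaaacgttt
Of the remaining promoters, Pf4, Cbr2 and Stab1 held GAGGAA at 8, 79 and 30 bases before the start, Stab1 also held TGCTGA at 43 bases, and Ccr2 held none of the 4 motifs. GAGGAA was thus found for 5 of the 7 markers, beside 23.3% of all promoters, a difference that was not tested. The markers are counted here by gene and the background by promoter, and the other F13a1 promoter held no match. Of the 3 markers that varied together, Mrc1 and F13a1 held it and Cd163 did not. A match of letters is not a measure of binding.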

How the data were processed

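Raw counts per gene were deposited by the authors for 10 mice, without normalization. Per the labels and the study's methods, libraries were made from 500 ng of RNA with the KAPA mRNA HyperPrep kit, sequenced as paired 100-base reads, trimmed with HTStream and aligned with STAR 2.7.10b. The methods name mm10 and the submitters' processing notes mm39, so the build of the counts is uncertain, and the coordinates printed are those of RefSeq promoters on GRCm38.p6, matched by gene name. The annotation, and the handling of strand and of reads shared by genes, are not given in the sources used here.

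Of 56884 gene IDs, 91.3% had a symbol in GENCODE M21, which also gave the exon lengths. The fit used edgeR 4.0.16 under R 4.3.3 (TMM, expression filter by group, quasi-likelihood test, Benjamini-Hochberg adjustment), and each standard error was the size of the log2 fold change over the square root of F. CPM values were computed with TMM factors, and log2 CPM with a prior count of 2. DESeq2 1.42.0, which the study used, other scalings and filters, covariates and leaving out each mouse were the alternatives. Counts of 17622 genes were simulated with 200 changed between DHT and void. There edgeR recovered 91.7% at a log2 fold change of 1 and 100% at 2, with 7.66% of calls false. The changed genes were drawn from those with a mean above 1 CPM, and their spread followed the trend of all genes with level. Lyve1, Cbr2, Ccr2 and Pf4, at 0.604, 0.412, 0.402 and 0.265 CPM over all mice, lay below that limit. Recovery at such levels, or with a spread as wide as that of Mrc1, was not simulated.

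The members and lists were chosen with earlier results of these data known. Named were all members, all tested genes of the list of other border-associated macrophage genes and, of each other list, the most abundant gene, those with the lowest p and the highest and lowest log2 fold change, and markers near 0 counts. Icam1, Ccl2, Vcan, Itgal, S100a4, Flt4, the T cell genes other than Trac, Gpr34, Cx3cr1 and the cell-type reference levels per kb were named after their values were seen. The relations of Mrc1 were first computed against 13 measures, and the other 13 lists were added after those values were known. The values of 2 listed genes are not reported here, though the list counts and medians include them.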

Additional observations from a re-analysis of the deposited data

How the results depend on the processing

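No paired analysis was run, because the labels give no litter or cohort for the mice, although the study randomized littermates between treatments. Of the values recomputed, 225 kept their direction and side of the threshold or, for counts, their size within 1.5 times, 22 changed sign and 35 counts moved further. No marker passed with any mouse left out by edgeR: log2 fold changes ranged from -0.048 to 0.586 for Mrc1 (negative without void mouse 9 or DHT mouse 1), -0.362 to 0.386 for Cd163 (positive without void mouse 5 or DHT mouse 2, 5 or 6), -0.502 to -0.037 for Lyve1, -0.471 to 0.311 for F13a1 (positive without void mouse 5), 0.199 to 0.729 for Cbr2, -0.089 to 0.099 for Stab1 (negative without void mouse 9 or 11 or DHT mouse 1, 3 or 5) and -0.043 to 0.45 for Ccr2 (negative without DHT mouse 1). In the same fits 351 to 1072 genes were higher (552, 351, 493, 395 and 518 without void mice 10, 11 and 4 and DHT mice 1 and 3), 5 to 77 lower (11, 5, 9, 13 and 20 without those mice, 77 and 29 without DHT mice 2 and 6) and 175 to 513 higher beyond a log2 fold change of 1 (197, 250, 175 and 242 without void mice 11 and 4 and DHT mice 1 and 3). Other border-associated macrophage genes higher numbered 1 to 4, with 4 without void mouse 5. DESeq2 called 226 genes lower and put Stab1 at -0.008. Its size factors in edgeR also put Stab1 at -0.008 and left 1 other border-associated macrophage gene higher, as did no filter. With the choroid plexus covariate 0 genes were higher, 0 lower, 0 higher beyond the fold limit and 0 other border-associated macrophage genes higher by edgeR, and Cd163 (1.304), Lyve1 (0.572), F13a1 (1.491) and Ccr2 (-0.266) changed sign. The fibroblast covariate gave 72 genes lower. Scaling to microglia genes gave 568 genes higher, 9906 lower, 1 marker lower and 1 other border-associated macrophage gene lower, with Mrc1 at -0.24, Stab1 at -0.405 and Ccr2 at -0.214. The cause was not tested. Of the markers, Pf4, Cbr2 and Ccr2 had the fewest counts, with at most 31 in a library.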
